A study of Macaca mulatta with 5 samples.

Results

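The genes described here encode voltage-gated sodium and calcium channels, potassium channels, pacemaker channels of the HCN family, and chloride channels and transporters of the CLCN family, with their auxiliary subunits. Membership was set by gene symbol alone, though the group was chosen with earlier results of these data known. The group holds 104 of the 14132 named genes on the array. Messenger RNA was measured on Affymetrix rhesus macaque expression arrays in cells of the embryonic stem cell line 366.4 as they were cultured towards serotonin neurons. Per the labels, each of 5 stages was hybridised to 1 array, so no difference below has a replicate check and no test could be run. Each value is the signal of 1 probe set, a set of short probes for 1 transcript, after all arrays were scaled to the same trimmed mean.

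The stages were undifferentiated embryonic stem cells of passage 13, grown on mouse embryonic fibroblasts as a feeder layer (ESC), and embryoid bodies, floating aggregates collected after 6 to 8 days (EB). Neurospheres then formed in DMEM/F12 medium with N2 supplement over 7 to 9 days (N1). The next stage was grown for 7 to 9 days in that medium with FGF4 added to expand Nestin-positive cells, and the labels call it proliferating serotonin neurons (N2). The last stage was matured in DMEM/F12 without FGF4, in wells that the labels call GFR reduced, and is labelled differentiating serotonin neurons (N3). All stages derive from 1 cell line, and the labels give no sorting step, so each array measured whatever mixture of cells the culture held.

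Ion channels are membrane proteins whose opening lets selected ions cross the membrane. In neurons, sodium channels start the action potential, potassium channels end it and set the resting potential, and calcium channels couple it to transmitter release and to signalling inside the cell. Most of these channels consist of a pore-forming subunit, which selects the ion and often senses voltage, joined by auxiliary subunits that move it to the membrane and tune how it opens. Serotonin neurons of the brainstem fire slowly and regularly, and potassium channels gated by calcium, by G proteins and by acid take part in pacing them.

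Background and RNA quality differed between arrays. The signal ratio of the 3' to the 5' actin control probe set was 1.73, 15.2, 5.43, 25.2 and 8.63 from ESC to N3, so N2 stood highest. For GAPDH it was 7.1 in N2 and between 1.69 and 2.78 on the other arrays. Signals below 100 were treated as not measured and set to a floor of 100 for ratios. Of 674 probe sets whose names start with NC- and whose target was not established, 61 reached 100 in ESC and 10 to 22 on the other arrays. Channel signals between 100 and 200 are therefore close to this background, most of all in ESC. The only technical spread available came from genes with several probe sets, by how far the log2 ratios of the 2 brightest lay apart. As an SD of the log2 ratio it was 0.75 for EB against ESC, 0.45 for N1 against EB, 0.54 for N2 against N1, 0.43 for N3 against N2 and 0.82 for N3 against ESC, and it does not measure the spread between cultures. How far mouse RNA from the feeder layer adds to the ESC signals was not tested.

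The stage labels were set against marker genes. POU5F1, a core pluripotency factor, was at 28621 in ESC and at 14.7 in N3, and DCX, a microtubule protein of young neurons, was at 186 in ESC and at 10607 in N3. In N3 against ESC 4 of 5 pluripotency markers were lower by 2-fold or more, while NANOG, another such factor, was higher, at 1047 in ESC and 2155 in N3. Of 7 measured neuron markers, 5 were higher and 0 lower. The neuron marker SYT1 was highest in ESC, at 4177, and was at 2985 in N3. Over all measured genes 17.2% were higher and 16.4% lower. Of 8 serotonin neuron genes with a probe set, 4 stayed below the floor on every array. TPH1 and TPH2, which encode the enzymes of the first step of serotonin synthesis, stayed at or below 23.3 and 16.2 on every array. The serotonin neuron transcription factor gene LMX1B and the serotonin receptor gene HTR1A stayed at or below 37.4 and 49.2. FEV, another such transcription factor gene, lay between 66 and 121, and the vesicle transporter gene SLC18A2 between 86.9 and 189. GATA2 and GATA3, transcription factor genes that also act in other lineages, were highest in EB, at 203 and 3911, and were at 107 and 895 in N3. SLC6A4 and DDC were not analysed here. The stages are therefore called by their short names below.

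Fewer channel genes reached a signal of 200 in the early stages than in the late ones. Of the 104 genes, 46, 32, 38, 52 and 52 reached a signal of 100 from ESC to N3, so at that level ESC was close to the late stages. Over all named genes the share at 100 or more was 73.1%, 67.6%, 71.1%, 70.0% and 70.4% in the same order. The number at 200 or more was 14, 15, 19, 30 and 37 from ESC to N3. Over all named genes the share at 200 or more stayed between 57.6% and 60.5%, while for the channel genes it went from 13.5% in ESC to 35.6% in N3. On all 5 arrays together, 72 channel genes reached 100 at least once, 32 stayed below it throughout and 23 lay at or above it on every array. Of the 45 that reached 200 somewhere, 29 had their highest signal in N3 (64.4%), 7 in ESC, 4 in N1, 3 in N2 and 2 in EB. Among the 9769 named genes of the array that reached 200, 20.2% were highest in N3 and 33.7% in ESC.

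**Figure D1:**
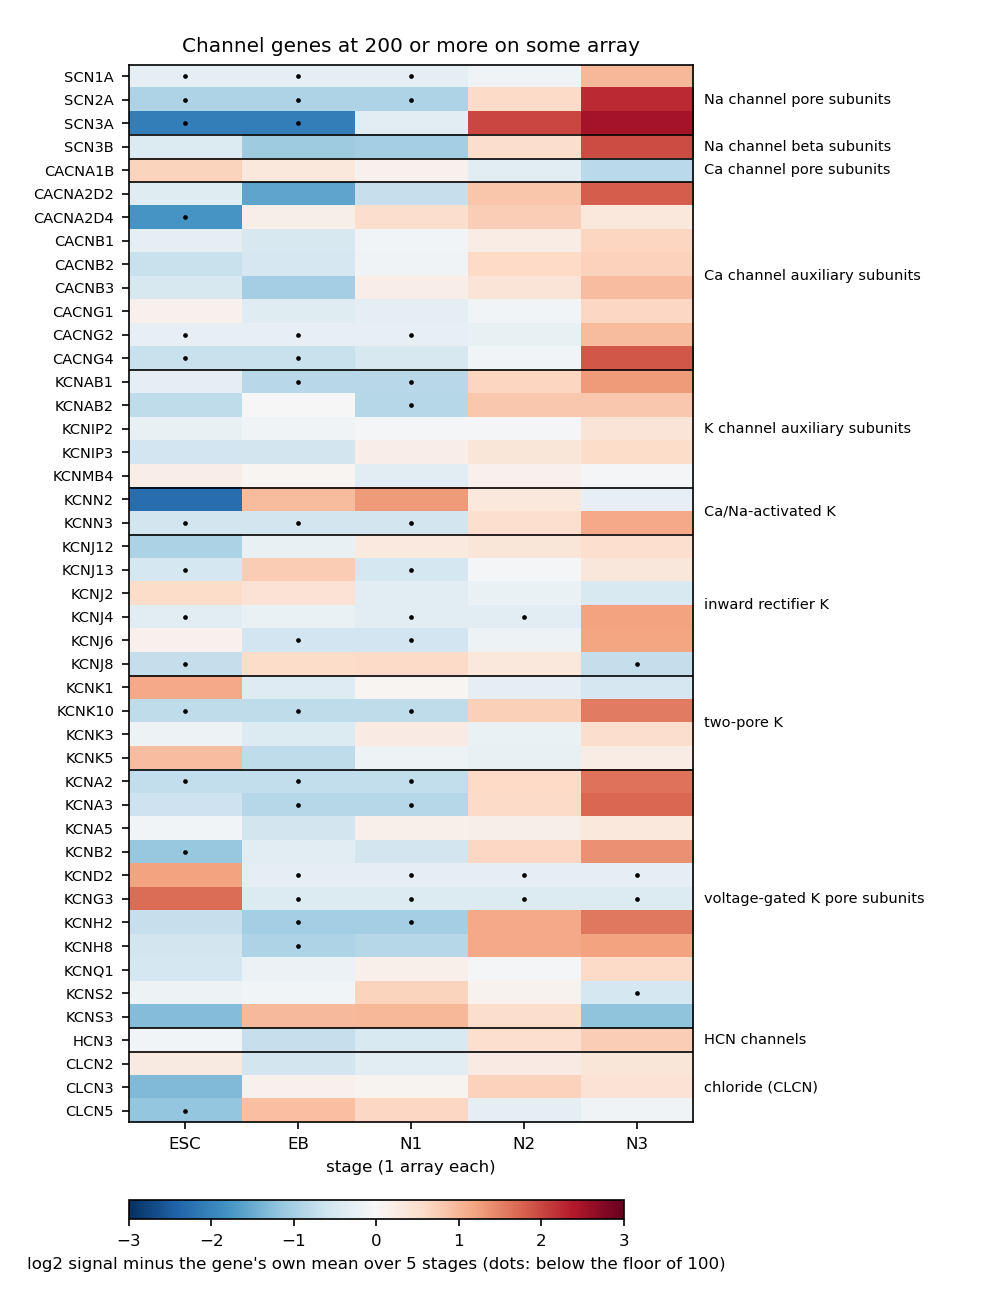
Log2 signal of the 45 channel genes that reached 200 on some array, minus each gene's own mean over the 5 stages (columns, 1 array each), ordered by channel family; dots mark signals below the floor of 100. Of these genes, 29 have their highest signal in N3, most of them in the sodium, auxiliary calcium and voltage-gated potassium blocks, while KCNG3 and KCND2 are high in ESC and below the floor later.

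The first comparison, EB against ESC, asked how channel genes differed once cells had left the feeder layer and aggregated. Of 52 channel genes measured on at least 1 of the 2 arrays, 7 (13.5%) were higher by 2-fold or more in EB and 5 (9.62%) lower by as much. Over all 10978 measured genes the shares were 12.1% higher and 11.8% lower, so the channel genes were near the array as a whole. Their median log2 ratio was -0.21, against -0.06 for all genes. The split of 7 higher and 5 lower became 10 and 4 after quantile normalisation and with arrays scaled to equal medians, and 3 and 1 with the values as deposited. Equal medians moved the median log2 ratio of all genes to 0.41 and that of the channel genes to 0.12. The genes past the threshold were of mixed families.

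N1 against EB covered the selection of neurospheres in N2 supplement. Of 42 measured channel genes, 2 (4.76%) were higher and 1 lower, beside 5.15% and 2.2% over all 10335 genes measured. SCN3A and CACNB3 were the higher genes and KCNJ13 the lower one. The split depended on scaling, with 2 higher and 2 lower after quantile normalisation, 1 and 3 with equal medians, 9 and 0 when arrays were scaled to the hybridisation controls, and 1 and 0 with the values as deposited. With equal medians 2.17% of measured channel genes were higher and 6.52% lower, beside 2.68% and 8.06% over all genes. With the hybridisation controls the shares were 18% and 0%, beside 13.8% and 0.69% over all genes. They were 4.35% each after quantile normalisation, beside 3.36% and 3.08%, and 7.14% and 0% as deposited, beside 3.10% and 1.81%. The median log2 ratio of all genes was -0.37 with equal medians and 0.41 with the hybridisation controls.

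N2 against N1 was the step to the FGF4 culture. Of 59 measured channel genes, 13 (22.0%) were at least 2-fold higher in N2 and 0 lower. Over all 10552 measured genes 5.06% were higher and 6.53% lower. A gene measured only through its N2 signal could be higher in N2 but not lower. The higher share was therefore also taken over every gene with a probe set, measured or not. It was then 12.5% of the 104 channel genes and 3.78% of all genes. The median log2 ratio of the channel genes was 0.22 and that of all genes -0.04. The higher genes were SCN2A, SCN3A, SCN3B, CACNA2D2, KCNA2, KCNA3, KCNB2, KCNH2, KCNH8, KCNAB1, KCNAB2, KCNK10 and KCNN3. Scaling to the hybridisation controls lowered the median log2 ratio of all genes to -0.57 and that of the channel genes to -0.15. On that scale 7 channel genes were higher and 7 lower, each 11.7% of those measured, beside 1.71% higher and 23.3% lower over all genes. The values as deposited gave 2 of 27 higher (7.41%), beside 4.21% over all genes. With a floor of 200, 5 of 33 were higher (15.2%), beside 4.42%, and with the median over a gene's probe sets 7 of 49 (14.3%), beside 4.3%. The N2 array also had the highest actin 3' to 5' ratio. Compared without it, N3 against N1 (added after the values were seen) had 19 of 61 channel genes higher and 4 lower, or 31.1% and 6.56%, beside 8.42% and 6.67% over all genes.

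N3 against N2 compared the matured culture with the expanded one. Of 56 measured channel genes, 9 (16.1%) were higher and 2 (3.57%) lower, beside 4.78% and 2.19% over all 10401 genes measured. Over every gene with a probe set the higher shares were 8.65% for channel genes and 3.52% for all genes. The higher genes were SCN1A, SCN2A, SCN3B, CACNG2, CACNG4, KCNA2, KCNA3, KCNJ4 and KCNJ6, and the lower ones were KCNS3 and KCNJ8. Of the 13 genes that were higher in N2 than in N1, 12 had a still higher signal in N3, and KCNA2, KCNA3, SCN2A and SCN3B passed 2-fold in both steps.

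Over the whole culture, N3 against ESC, 27 of 66 measured channel genes (40.9%) were at least 2-fold higher in N3 and 5 (7.58%) lower. Over all 11232 measured genes 17.2% were higher and 16.4% lower. Over every gene with a probe set, 26.0% of channel genes and 13.7% of all genes were higher. The median log2 ratio was 0.60 for the channel genes and -0.13 for all genes. In 12 of the 27 the ESC signal was below the floor, so their folds are lower bounds. Leaving out the ESC array, N3 against EB (also added later) gave 22 of 55 higher and 5 lower, or 40% and 9.09%, beside 13% and 11.2% over all genes. Just inside the threshold lay KCNJ2, 2.02-fold lower, and CLCN5, at least 2.07-fold higher. Just outside it lay CACNB1, 1.90-fold higher, and CACNG5, at least 1.97-fold lower.

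**Figure D2:**
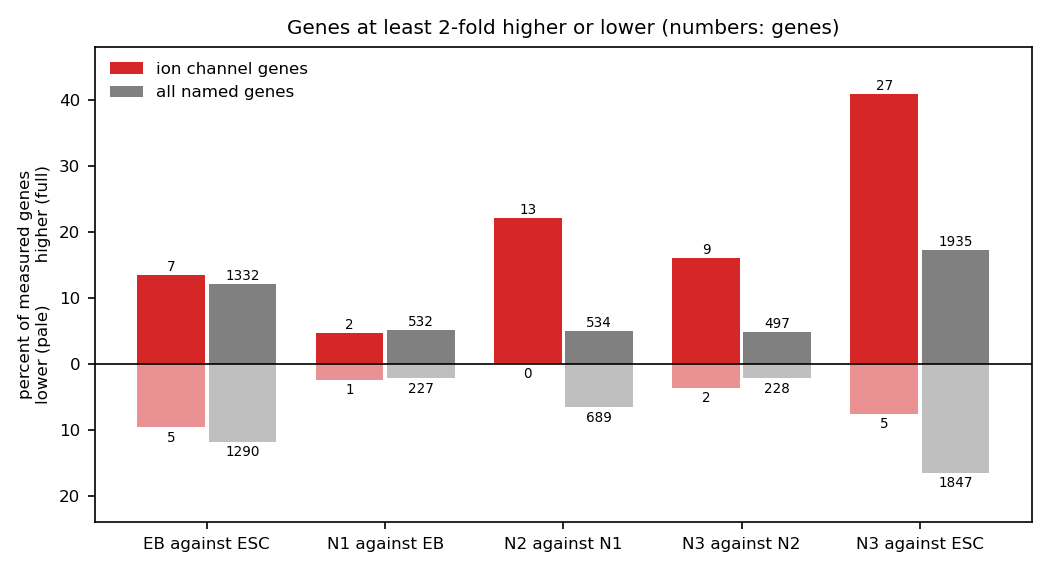
Percent of measured genes at least 2-fold higher (full bars, upwards) or lower (pale bars, downwards) in 5 stage comparisons, for the ion channel genes (red) and all named genes (grey), with gene numbers at the bars. The red and grey bars are of like height for EB against ESC and N1 against EB, and the upward red bars are taller for N2 against N1 (22.0% and 5.06%), N3 against N2 (16.1% and 4.78%) and N3 against ESC (40.9% and 17.2%).

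Sodium channel genes were among those that differed most between stages. SCN3A, a brain sodium channel pore subunit known for its expression in the fetal brain, had signals of 6.41, 34.1, 337, 1694 and 2373 from ESC to N3. Its signal was below the floor in both early stages and higher at each later stage. It was at least 3.37-fold higher in N1 than in EB, 5.03-fold higher in N2 than in N1 and at least 23.7-fold higher in N3 than in ESC. SCN2A, which encodes the pore subunit found early at the axon initial segment of excitatory neurons, was at 76.7, 24.1, 63.5, 283 and 909 in the same order. Thus SCN2A was below the floor through N1, at least 2.83-fold higher in N2 and 3.21-fold higher again in N3, while its other probe set was above the floor in N3 alone, at 130.4. SCN1A, a pore subunit prominent in fast-firing inhibitory neurons, was measured in N2 and N3 alone, with 47.4, 19.3, 3.56, 113 and 246, and was 2.17-fold higher in N3 than in N2. Its other probe set stayed at or below 56.2, and SCN3A has 1 probe set.

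The other sodium channel pore genes stayed close to the floor. SCN7A, an atypical pore gene that was named after its values were seen, was at 69.7, 75.9, 17.5, 150.5 and 128, and so was measured in N2 and N3 alone. SCN8A, the main pore subunit at nodes of Ranvier in the adult, was at 7.63, 8.03, 78.7, 115 and 109, so that its late signals lay just above the floor. SCN9A, a pore subunit of sensory neurons, was highest in ESC, with 137, 81.6, 39.7, 78.6 and 89.8. SCN4A, the skeletal muscle pore subunit, ranged from 72.3 in N2 to 105 in ESC and was at 81.2 in N3. Of the 8 pore genes, 2 of 6 measured were higher in N2 than in N1, 2 of 5 in N3 than in N2 and 3 of 7 in N3 than in ESC, and the counts for N2 against N1 and N3 against ESC were the same under quantile, equal-median and hybridisation-control scaling. Over all measured genes the higher shares were 5.06%, 4.78% and 17.2% in the same order.

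SCN3B encodes a beta subunit, a small membrane protein that modulates the pore, and was the 1 beta gene with a probe set here. Its signals were 176, 112, 115, 338 and 897 from ESC to N3, low and alike in EB and N1 and highest in N3. It was 2.95-fold higher in N2 than in N1, though within 2-fold on the hybridisation-control scale, and 2.66-fold higher again in N3. Its other probe sets followed the same course, one with 80.8, 54.3, 73.7, 458 and 1004 and another with 5.68, 43.5, 38.9, 73.3 and 193.

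Calcium channel pore genes were mostly near or below the floor. CACNA1B encodes the pore of the N-type channel, which triggers transmitter release at synapses, and its signals were 512, 399, 351, 260.0 and 185 from ESC to N3. Each stage was lower than the one before, and N3 was 2.76-fold lower than ESC, but a second probe set of CACNA1B stayed between 201 and 276 with a log2 ratio of -0.19. CACNA1C and CACNA1E stayed below 100 on all arrays, and CACNA1D, a pore gene of pacemaking cells, was highest at 103 in N3. CACNA1A, CACNA1G, CACNA1H and CACNA1S were not analysed here, so the pore genes of several main calcium channel types are missing from this account.

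The auxiliary calcium channel genes differed more. All 11 were measured in ESC or N3, and 6 were at least 2-fold higher in N3, or 5 after quantile normalisation and 7 with equal medians or the hybridisation controls. Over all measured genes 17.2% were higher in N3 than in ESC. CACNA2D2, an alpha2delta subunit and a binding site of gabapentin, was at 268, 115, 213, 620.2 and 1222 from ESC to N3. It was thus lowest in EB and highest in N3, 2.91-fold higher in N2 than in N1 (within 2-fold on the hybridisation-control scale) and 4.57-fold higher in N3 than in ESC. CACNA2D4, an alpha2delta subunit known from photoreceptors, took a different course, with 19.3, 388, 495, 572 and 426. It was below the floor in ESC alone and at least 3.88-fold higher in EB, and its other probe set stayed below 100 on all arrays. CACNA2D1, the alpha2delta subunit common in muscle and brain, stayed within 2-fold, between 102 and 168.

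Beta subunits are cytoplasmic proteins that carry the pore to the membrane. CACNB3 had signals of 460.1, 317, 734, 839 and 1233 from ESC to N3, lowest in EB and highest in N3, and was 2.68-fold higher in N3 than in ESC. Its dimmer probe set did not follow, at 147, 62.4, 100.5, 73 and 48.9, with a log2 ratio of -0.55 between ESC and N3. CACNB2, the main beta subunit of the heart, was at 104, 117, 155, 250.1 and 266, or 2.56-fold higher in N3 than in ESC. A second probe set of CACNB2 had 60.7, 115, 245, 249 and 170, so it was highest in N1 and N2 and lower in N3. Its remaining probe set stayed at or below 65.1 on all arrays. CACNB1, the beta subunit of skeletal muscle that is also found in brain, was at 207, 181, 240.4, 297 and 394 and stayed within 2-fold of its ESC level.

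Of the gamma genes, CACNG2 (stargazin) and CACNG4 encode proteins better known as auxiliary subunits of AMPA-type glutamate receptors. CACNG4 was at 60.4, 57.8, 113, 150.3 and 578 from ESC to N3, so the main difference lay between N2 and N3, at 3.85-fold. Its second probe set, with 10.2, 34, 12.8, 99.9 and 393, was also highest in N3. CACNG2 was at 65.7, 3.75, 14, 101 and 227, measured in the last 2 stages and 2.24-fold higher in N3 than in N2. CACNG1, the gamma subunit of the skeletal muscle channel, was at 147, 104, 110.3, 126 and 205, within 2-fold in every comparison of these stages.

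Voltage-gated potassium channels open when the membrane is depolarised and return it to rest. Their 28 pore genes had 5 of 13 measured members higher in N2 than in N1 and 0 lower, or 3 higher on the hybridisation-control scale. Over all measured genes 5.06% were higher and 6.53% lower in N2 than in N1. The shares were 17.2% and 16.4% in N3 against ESC, and 4.78% and 2.19% in N3 against N2. For N3 against ESC, 6 of 15 of these pore genes were higher and 2 lower, with 6 higher under each of quantile, equal-median and hybridisation-control scaling. For N3 against N2 their median log2 ratio of 0.06 turned negative under quantile and equal-median scaling, and the 2 higher and 1 lower became 1 and 1. The genes that differed most in N2 were of the KCNA, KCNB and KCNH groups.

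KCNA2, a Shaker-type subunit of axons, had signals of 56, 6.45, 6.57, 252 and 515 from ESC to N3. It was measured in N2 and N3 alone and was at least 5.15-fold higher in N3 than in ESC, but its other probe set stayed at or below 62.1 on all arrays. KCNA3, a Shaker-type subunit best known from lymphocytes and also present in brain, was at 117, 84.8, 92.6, 269.6 and 594. Its signal was near the floor through N1, then at least 2.70-fold higher in N2 and 2.2-fold higher again in N3. The dimmer probe set of KCNA3 was above the floor in N3 alone, at 142. KCNB2, a delayed rectifier, was at 45, 178, 150.4, 337 and 571, while its other probe set had 141 in ESC and 138 in N3. That second probe set thus shows no difference between the first and last stage for KCNB2.

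KCNH2 encodes the hERG channel, which repolarises the heart and is also found in neurons, and KCNH8 a relative of the ELK group from brain. The signals of KCNH2 were 126, 73.5, 87.3, 448 and 603, near the floor through N1 and at least 4.48-fold higher in N2. A second probe set of KCNH2 had 243, 58.3, 24.2, 179 and 217, so it was higher in N2 than in N1 too, but not higher in N3 than in ESC. KCNH8 was at 129, 92.5, 104, 418 and 436, a step of 4.01-fold between N1 and N2 with little difference on either side of it. KCNQ3, a subunit of the M-current that restrains repetitive firing, was below the floor through N1 and at 164 in N2 and 152 in N3.

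Other members of this family were highest in the early stages. KCNG3 and KCNS3 encode silent subunits, which form no channel alone and modify those of the KCNB group. KCNG3 was at 431 in ESC and at 69.4, 54.9, 39.3 and 33.6 afterwards, at least 4.31-fold lower in EB. KCND2, a pore subunit of the A-type current that delays firing, was at 287 in ESC and between 33.9 and 71.4 afterwards, at least 2.87-fold lower in EB. Both were measured in ESC alone. KCNS3 was at 153, 731, 747, 545 and 163, 4.77-fold higher in EB than in ESC and 3.34-fold lower in N3 than in N2, so that its first and last stages lay within 2-fold of each other. KCNQ1, which carries a slow repolarising current in the heart with KCNE1, was at 115, 147, 185, 162 and 246. Its 2.13-fold higher signal in N3 than in ESC reversed to a log2 ratio of -0.072 with the values as deposited and to -0.40 with a floor of 200, settings under which another probe set, with 264 in ESC and 155 in N3, stood for the gene. KCNA1, KCNC1, KCND3 and KCNE1 stayed below 100 on all arrays.

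**Figure D3:**
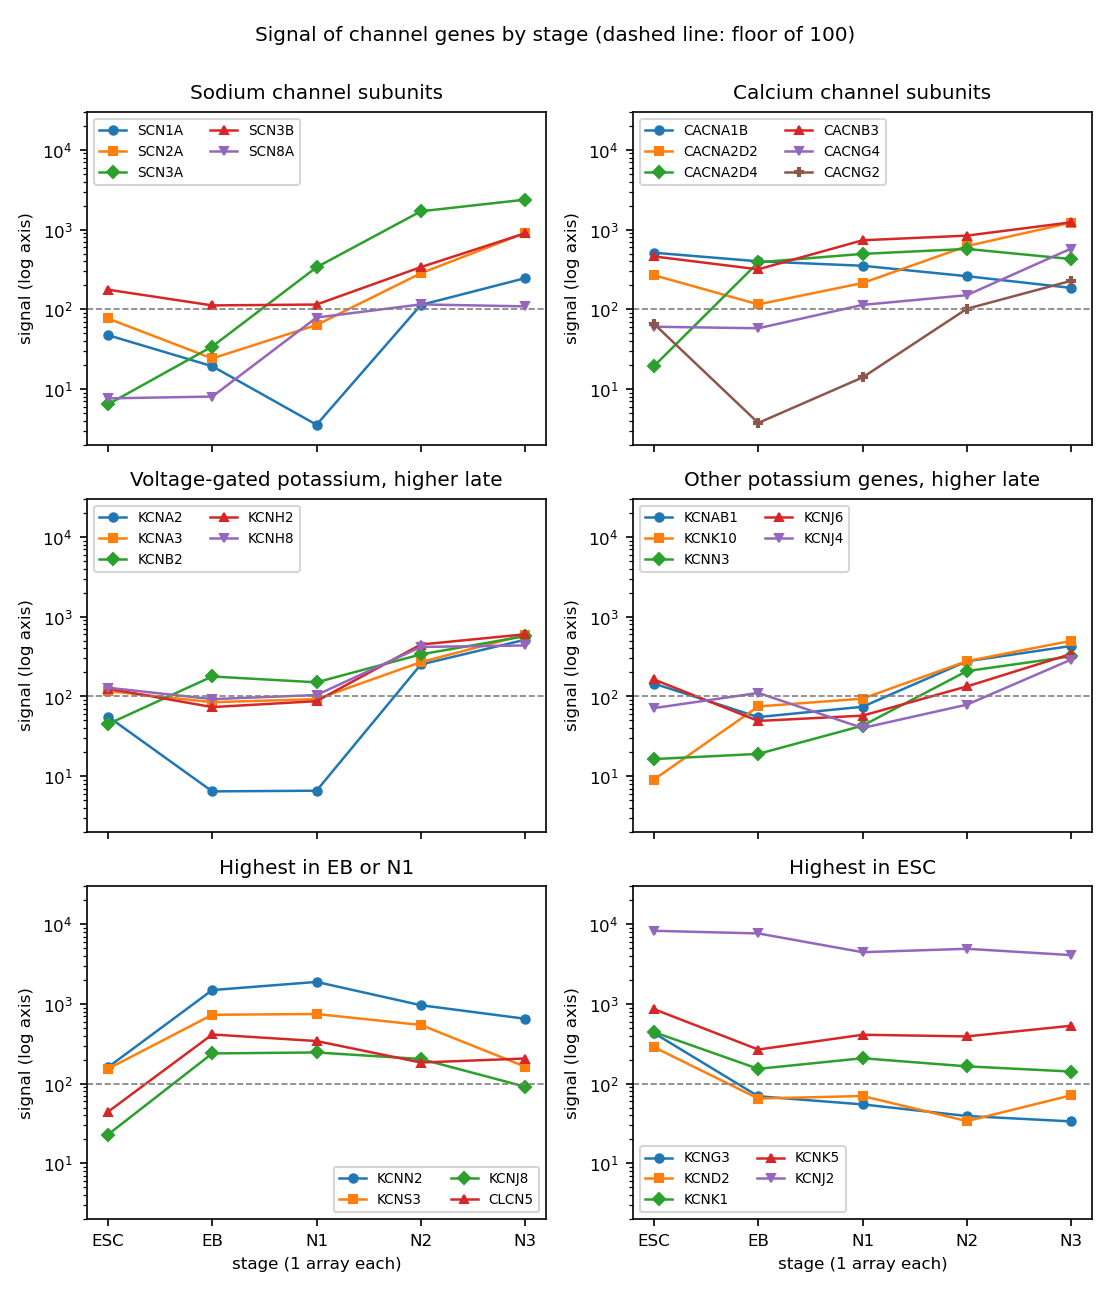
Signal (log axis) against stage, 1 array each, for channel genes in 6 panels, with the floor of 100 as a dashed line. The sodium channel genes SCN2A and SCN3A, the calcium channel gene CACNG4 and the potassium channel gene KCNA2 start below the floor and end between 515 and 2373, KCNN2 and KCNS3 peak in N1, and KCNG3 and KCND2 are above the floor in ESC alone.

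Among potassium channel auxiliary genes, 2 of 8 measured were higher in N2 than in N1 under each of the 4 scalings. Over all measured genes the share was 5.06% on the scale used here. KCNAB1 and KCNAB2 encode beta subunits that bind Shaker-type pores inside the cell. KCNAB1 had 145, 55.1, 74.3, 276 and 430.0 from ESC to N3, and its second probe set followed the same course, with 89.7, 52.7, 56.7, 197 and 312. KCNAB2 was at 107, 178, 47.4, 318 and 316, but its probe sets disagreed, since another had its highest signal, 306, in ESC and was at 95.5 in N3. KCNMB4, the brain beta subunit of the large-conductance calcium-activated channel, was at 1855, 1675, 1269.5, 1773 and 1575, within 2-fold throughout on the probe set used. One of its 3 other probe sets was higher at each stage than at the one before, with 88.3, 209, 282, 434 and 526, and the remaining ones stayed within 2-fold. KCNMA1, the pore gene of that channel, was above the floor in N1 alone, at 120.3.

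Small-conductance calcium-activated channels, of the KCNN genes, give the pause after an action potential. KCNN2 and KCNN3 followed different courses. KCNN2 was at 161, 1492, 1889, 964 and 652 from ESC to N3, so it was 9.29-fold higher in EB than in ESC, peaked in N1 and was 2.90-fold lower in N3 than in N1. KCNN3 was at 16.4, 19, 43, 208 and 319, below the floor through N1 and at least 3.19-fold higher in N3 than in ESC. In N2 it was at least 2.08-fold higher than in N1, though within 2-fold on the hybridisation-control scale.

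Inward rectifiers, of the KCNJ genes, pass potassium near the resting potential. KCNJ2, which holds the resting potential in muscle and other cells, was at 8268, 7662, 4456, 4917 and 4098, and was 2.02-fold lower in N3 than in ESC. The other probe set of KCNJ2 stayed at or below 92.0. KCNJ6, a G-protein-gated subunit through which transmitters such as serotonin quiet neurons, was at 163, 49.3, 57.5, 134 and 341, lowest in EB and N1 and 2.55-fold higher in N3 than in N2. KCNJ4, a strong rectifier of forebrain neurons, was at 71.4, 111, 40.2, 78.9 and 290.0. It stood clear of the floor in N3 alone, at least 2.90-fold above N2. KCNJ8, the pore of an ATP-sensitive channel of vessel walls, ran the other way, at 23, 239, 246, 204 and 91.6, and was measured from EB to N2. KCNJ13, known from epithelia, was at 91.3, 245, 90.7, 137 and 184, highest in EB. KCNJ3, which encodes the common partner of KCNJ6, was not analysed here.

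The tandem pore KCNK genes encode leak channels that stay open at rest. KCNK10, of the group opened by stretch and lipids, had 9.08, 74.9, 93.9, 277 and 499. It was at least 2.77-fold higher in N2 than in N1, though within 2-fold on the hybridisation-control scale, and at least 4.99-fold higher in N3 than in ESC. KCNK1 and KCNK5 were highest in ESC. KCNK1, a weakly active leak channel, was at 443, 153, 208, 165 and 142, 2.89-fold lower in EB, with a second probe set at 357 in ESC and at or below 118 later. KCNK5, a leak channel opened by alkaline pH, was at 861, 268, 411, 391 and 532, 3.21-fold lower in EB. The other probe set of KCNK5, with 465, 205, 201, 193 and 116, was lowest in N3, so the probe sets agree on a higher ESC signal and disagree on N3. KCNK3, a leak channel closed by acid, stayed between 249.6 and 473 and was highest in N3.

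HCN3, a pacemaker channel gene and the 1 HCN gene with a probe set here, was at 231, 152, 179, 349 and 413 from ESC to N3. It stayed within 2-fold in each step and passed it over both late steps together, at 2.31-fold in N3 against N1.

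CLCN3 and CLCN5 encode exchangers of chloride and protons in endosomes. CLCN3 was at 2453, 6696, 6503, 9903 and 8385, 2.73-fold higher in EB than in ESC, and its 3 other probe sets were also higher in EB, with log2 ratios of 0.68, 0.66 and 0.79. CLCN5 was at 44.3, 414, 342, 184 and 207, at least 4.14-fold higher in EB, but its other probe set had a log2 ratio of -0.45 there. CLCN2, a chloride channel of the cell membrane, stayed between 374 and 702. CLCN1, the chloride channel of skeletal muscle, stayed at or below 61.1.

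Second probe sets were available for some of the genes past 2-fold. Another probe set was counted only if it reached the floor on either array of the comparison. In N2 against N1, 5 of the 13 had another measured probe set, which ran in the same direction for 4 and past 2-fold for 1. In N3 against N2, the other probe sets of 4 genes ran the same way in 4 and past 2-fold in 2. In N3 against ESC, they ran the same way in 10 of 16 genes and past 2-fold in 6. The N3 against N1 differences were matched in direction in 8 of 8 genes and past 2-fold in 4. For SCN2A, SCN3B, CACNG4, KCNA3, KCNH2 and KCNAB1 the others were below the floor in N1, so their direction was fixed. Those of KCNAB2 (111 in N1, 149 in N3) and KCNB2 (101 and 138) could have run either way. Direction was likewise fixed for CACNG4, KCNA3 and SCN2A in N3 against N2, and for KCNAB1, KCNH2 and SCN3B in N2 against N1. In N3 against ESC it was fixed for CACNB2, CACNG4, KCNA3, KCNAB1, SCN2A and SCN3B, whose other counted probe sets were below the floor in ESC. Those of CACNA1B, CLCN3, KCNJ12 and KCNK1 were at or above it on both arrays and ran the same way. By contrast, CACNB3, CLCN5, KCNAB2, KCNB2, KCNH2 and KCNQ1 each had another counted probe set that ran the other way. For genes past 2-fold without another counted probe set the finding rests on 1 probe set, because there was no other or because the others stayed below 100 on both arrays. The latter held for KCNA2, whose other probe set was at 62.1 in N1 and 5.90 in N3. It also held for SCN1A, whose other probe set stayed at or below 56.2. These probe sets showed no higher late signal above the floor and were left out of the counts.

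**Figure D4:**
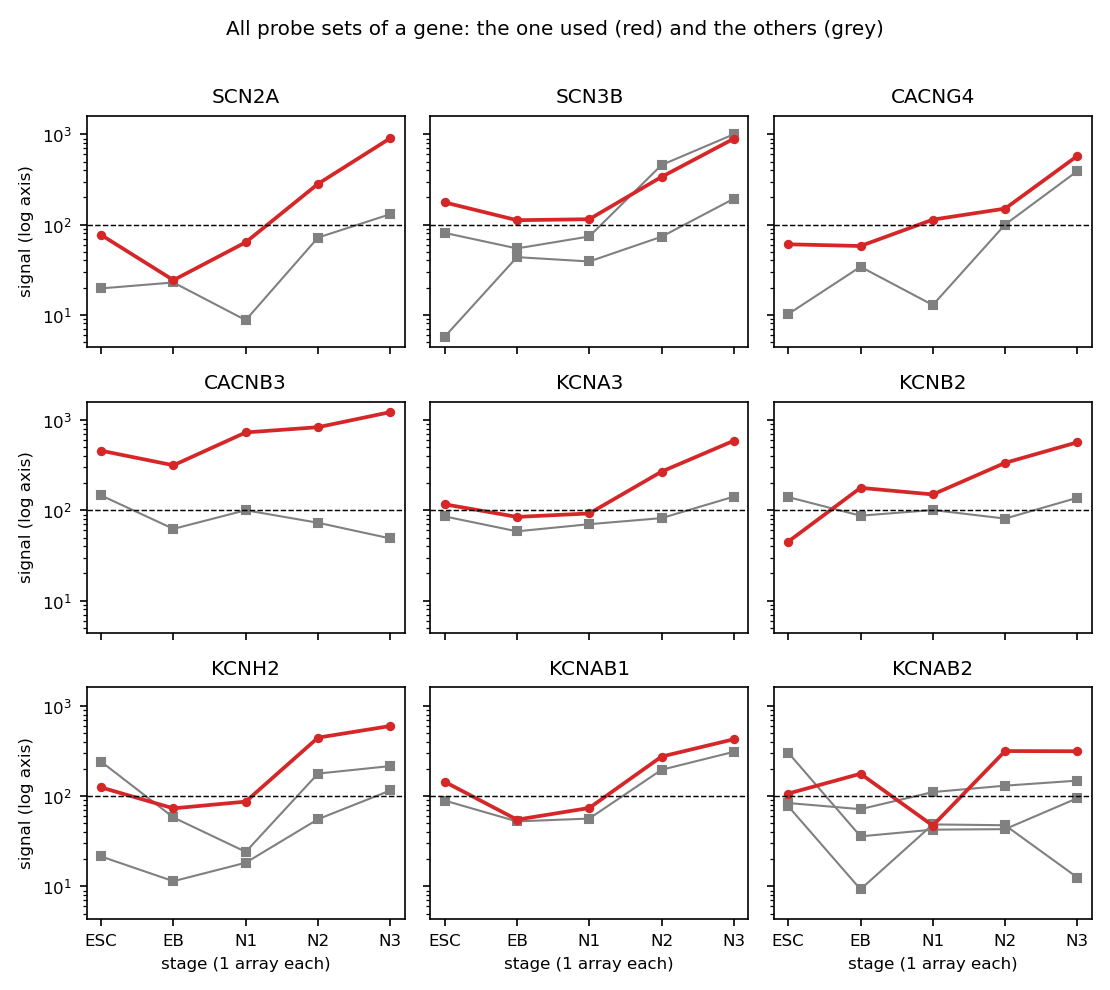
Signal (log axis) against stage, 1 array each, of every probe set of 9 channel genes, with the probe set used in red, the others in grey and the floor of 100 dashed. For SCN3B, CACNG4 and KCNAB1 the grey lines follow the red one, for KCNH2 they do so between N1 and N3 but 1 of them is high in ESC, and for CACNB3, KCNB2 and KCNAB2 at least 1 grey line does not.

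Genes whose products anchor or modify channels were listed separately. Of 26 such genes, 20 have a probe set, and 5 of 16 measured were higher in N2 than in N1 and 0 lower, beside 5.06% and 6.53% over all genes. For N3 against ESC, 9 of 16 were higher and 1 lower, beside 17.2% and 16.4% over all genes. ANK2, an ankyrin that tethers channels to the membrane skeleton, was at 1182, 615, 1233, 4497 and 5714 from ESC to N3. The intracellular FGF-related proteins FGF11, FGF12, FGF13 and FGF14 bind sodium channels. FGF11 was at 164, 124, 197, 641 and 1285, and FGF14 at 130.1, 146, 168, 479.8 and 605, both near their lowest through N1. FGF13 was at 2340.3, 1343, 2209, 4623 and 5779. FGF12 ran the other way, at 1724, 722, 467, 603 and 728, and was the 1 listed gene lower in N3 than in ESC. ANK3, which gathers sodium channels at the axon initial segment, was at 2351, 3154, 4180.2, 6131 and 6049, so its N1 and N2 signals differed by less than 2-fold.

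Among pumps and exchangers, 8 of 16 listed genes have a probe set. In N3 against ESC, 3 of 7 measured were higher and 0 lower, beside 17.2% and 16.4% over all genes. SLC12A5, the chloride exporter of mature neurons, was at 29.1, 87.6, 106, 227 and 419, highest in N3. Of 15 listed genes of calcium release and muscle coupling, 12 have a probe set. In N3 against ESC 3 of 9 measured (33.3%) were higher and 1 (11.1%) lower, beside the same shares over all genes of 17.2% and 16.4%. Among them CASQ2, which stores calcium in heart and slow muscle, was at 33.1, 89.7, 161, 529.9 and 1982. REST is a repressor that holds neuronal genes, many channel genes among them, silent outside neurons. The gene REST was not analysed here, and of 8 measured genes of its corepressor complex 0 were past 2-fold in N2 against N1 or in N3 against N2. With 5.06% higher and 6.53% lower over all genes in the first of these steps, and 4.78% and 2.19% in the second, a count of 0 among 8 genes is near the background. In EB against ESC 1 was higher and 1 lower, beside 12.1% and 11.8% over all genes. Between ESC and N3, RCOR3 was the 1 higher, from 255 to 1138. That is 12.5% of the 8 genes, beside 17.2% over all genes.

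Cell type markers also differed between stages, though not always in the same steps as the channel genes. The summed signal of 7 neuron markers with a probe set, of 12 listed, was 10911, 4699, 21778, 33538 and 59192 from ESC to N3. In N2 against N1, 4 of 6 measured neuron markers were higher and 0 lower, beside 5.06% and 6.53% over all genes. The sum over neuron markers was already higher in N1 than in EB, where 5 of 6 measured markers were higher. In that step 2 of 42 measured channel genes were higher, beside 5.15% over all genes. STMN2, an early marker of neurons, was at 935, 1986, 12594, 13995 and 24814 from ESC to N3.

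Most skeletal muscle markers were also higher late. The sum over 9 of 12 listed genes was 4009.9, 3373, 3884, 8223 and 35739.6 from ESC to N3, with 5 of 9 genes at or above the floor in N1 and 8 in N2 and N3. The muscle regulator gene MYOD1 was at or below 18.5 through N1, at 221 in N2 and at 322 in N3, and the embryonic myosin gene MYH3 went from 103 in N1 to 2905 in N2 and 14054 in N3. In N2 against N1, 5 of 9 were higher and 2 lower, beside 5.06% and 6.53% over all genes. The lower ones were TNNT1, at 2089 in N1 and 977 in N2, and TNNI1, at 1185 and 406. CKM was highest in ESC, at 126, and was at 45.6 in N3. In N3 against N2, 7 of 9 skeletal muscle markers were higher and 0 lower, beside 4.78% and 2.19% over all genes. Astrocyte and radial glia markers, 5 of 7 listed, summed to 2153 in N1, 4649 in N2 and 8069 in N3. Of these 5 genes, 2 were higher and 1 lower in N3 than in N1, and the astrocyte filament gene GFAP was at 742 in N1 and 684 in N3. Several channel genes above, such as CACNB1, CACNB2, KCNH2 and KCNN3, are also known from skeletal or heart muscle, and the part of muscle or glial cells in the channel differences was not tested. Of the channel genes described above for skeletal muscle, SCN4A was at 81.2 and CLCN1 at 11.7 in N3, both below the floor. CACNG1 was at 205 there, and CACNB1, which is also found in brain, at 394. The muscle pore gene CACNA1S was not analysed here. In a mixed culture measured in bulk, fewer cells of a type and less RNA per cell cannot be told apart.

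Heart, epithelial and endothelial marker sums were highest in EB. The sum over 9 of 12 heart muscle markers was 5403, 19634, 13207, 5064 and 9662 from ESC to N3. Lowest in N2, the heart sum was higher again in N3, where 3 of 8 measured heart markers were at least 2-fold higher than in N2 and 0 lower. Over all genes the shares were 4.78% and 2.19%. That over 9 of 10 epithelium and endoderm markers was 9567, 63692, 45729, 14835 and 3827, and that over 5 endothelium markers 3349, 10995, 5960.4, 3387 and 1658. The channel genes at least 2-fold higher in EB than in ESC were KCNN2, KCNS3, KCNJ8, KCNJ13, CLCN3, CLCN5 and CACNA2D4. Of them KCNJ13 and CLCN5 were highest in EB, KCNN2, KCNS3 and KCNJ8 in N1, and CLCN3 and CACNA2D4 in N2. The part of heart, epithelial or endothelial cells in the signals of these channel genes was not tested. Pluripotency markers, 5 of 6 listed, summed to 53553 in ESC and to between 3388 and 7057 afterwards. Smooth muscle and fibroblast markers, 10 of 11 listed, summed to 79029.8 in ESC and to between 35788 and 62911 afterwards. In N3 against ESC 6 of 10 were lower, such as the smooth muscle gene TAGLN, at 35825 in ESC and 7431 in N3, and 3 were higher, such as the matrix gene LUM, at 46 and 12912. Over all genes 16.4% were lower and 17.2% higher. The part of feeder or stromal cells in the ESC signals of genes such as KCNG3, KCND2 and KCNK5 was not tested.

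**Figure D5:**
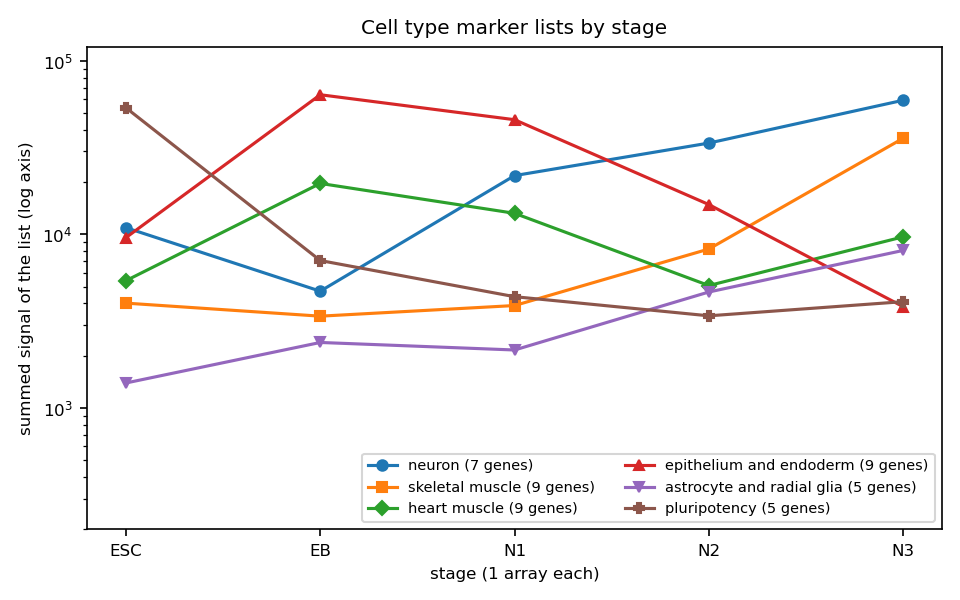
Summed signal (log axis) of 6 cell type marker lists against stage, 1 array each. The neuron sum goes from 4699 in EB to 59192 in N3 and the skeletal muscle sum from 3884 in N1 to 35739.6 in N3, while the epithelium and endoderm sum is highest in EB, at 63692.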

How the data were processed

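RNA of 5 stages was extracted with a Qiagen kit, labelled with biotin and hybridised to 1 array each, per the labels' protocols. The authors deposited linear intensities, 1 per probe set and array, and per the submitters' processing notes used GCOS 1.0. Its algorithm and scaling target are not stated in the sources used.

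Arrays were brought to 1 scale by setting the mean of the non-control probe sets among 52865, with 2% trimmed from each end, to 500, a multiplication by 2.508 to 2.511. Signals below 100 were set to 100 for ratios, log2 was taken, and "at least" marks a ratio in which 1 signal was below 100. Probe sets were named from the platform annotation, which can be old, and 101 of the 104 channel genes matched a RefSeq gene table by Entrez identifier. Each gene is represented by its brightest probe set, by mean log2 over the 5 arrays. The 104 channel genes have 160 probe sets, and 62 have 1. A gene was measured in a comparison if at or above 100 on either array, and past the threshold at 2-fold. The number of arrays limits the precision. No coordinates or sequences are given.

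Channel genes, lists and comparisons were chosen with earlier results of these data known. Named genes are those at least 2-fold different with a signal of 200 or more on the brighter array, up to 12 each way per comparison, the 12 brightest, those nearest the threshold in N3 against ESC, and a panel of 46, of which 13 were not analysed here. HCN3, all list genes given with values and the second probe sets were chosen after values were seen. The serotonin list was added later. Python 3.11.15, numpy 2.4.6 and pandas 2.3.3 were used. The scripts were tested on simulated data.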

Additional observations from a re-analysis of the deposited data

How the results depend on the processing

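Each count of channel genes at least 2-fold higher or lower was recomputed under other choices of scaling, floor, probe set and threshold. Of 114 such recomputed counts, 64 stayed within 1.5 times the reported one and 50 did not. With the values as deposited, whose floor of 100 equals about 251 on the scale used here, the higher and lower counts were 3 and 1 for EB against ESC, 1 and 0 for N1 against EB, 5 higher and 1 lower for N3 against N2, and 12 and 2 for N3 against ESC, and 2 genes were higher in N2 than in N1. A floor of 200 gave 4 and 3, 1 and 0, 5 and 1 for the first 3 of these, 16 higher for N3 against ESC, and 5 higher for N2 against N1. With a floor of 50, and equally with no floor and log2(value + 1), 15 were lower in EB than in ESC. Both settings gave 7 higher and 3 lower for N1 against EB, and 20 higher and 5 lower for N2 against N1. In N3 against ESC 10 were lower. At a floor of 50 the lower share in EB against ESC was 18.99%, beside 16.27% over all genes. In N1 against EB the shares were 10.14% higher and 4.35% lower, beside 7.23% and 2.84%. In N2 against N1 they were 25.32% and 6.33%, beside 5.85% and 7.82%. With no floor the lower shares in EB against ESC and N3 against ESC were 28.85% and 15.15%, beside 18.71% and 22.19% over all genes. For N1 against EB, quantile normalisation gave 2 lower, equal medians 1 higher and 3 lower, and the hybridisation controls 9 higher and 0 lower. The hybridisation controls also gave 7 higher and 7 lower for N2 against N1 and 1 lower for N3 against N2. When the median over probe sets stood for a gene, 4 were higher in EB than in ESC, 0 lower in N1 than in EB and 7 higher in N2 than in N1. At a 4-fold threshold the counts were 3 and 1 for EB against ESC, 0 and 0 both for N3 against N2 and for N1 against EB, and 12 and 1 over the whole culture, with 3 higher for N2 against N1. Without the N2 array, 4 were lower in N3 than in N1. Choosing the brightest probe set by linear signal, or dropping those whose suffix warns of binding to related transcripts, kept every count within 1.5 times. Higher and lower floors changed how many genes were measured. For the other settings the cause was not tested.

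Of 1756 recomputed log2 ratios of named genes, 1534 moved by less than the spread between probe sets and 220 by more, while 2 reversed, both for KCNQ1 in N3 against ESC, to -0.072 with the values as deposited and -0.40 with a floor of 200. The median log2 ratio of all genes lay above zero and their mean below, or the reverse, in EB against ESC, N1 against EB, N3 against N2 and N3 against ESC. No paired analysis was possible because each stage has 1 array. Signals near the floor, on 1 array a stage, limit what could be seen of dim channel genes.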
